A study of Mus musculus with 9 samples.

Results

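Costimulatory and checkpoint molecules are surface proteins through which an antigen-presenting cell raises or restrains the response of a T cell. The 9 genes described here, Cd80, Cd86, Icosl, Cd40, Cd83, Cd274, Pdcd1lg2, Pdcd1 and Havcr2, were chosen by gene name as one such family, out of 54532 genes in the table, with earlier results of these libraries known, among them the levels of these genes in the 3 groups. Their levels and fold changes are therefore given as a description, with no p-value for any of them. The cells were BV2, a microglial line of the mouse that has been immortalized, so every library is of 1 line. The control group was kept in normal medium with 10% serum. The OGD group was under oxygen and glucose deprivation, in low glucose medium with 4% serum and 4% oxygen. The OGD + A-485 group was under the same deprivation with A-485, an inhibitor of the catalytic activity of the acetyltransferase P300. In the experiments that preceded the transcriptome OGD lasted 24 h and A-485 was present throughout at 50 μM, and the same is taken to hold here. Each group had 3 libraries, and whether these were separate cultures is not given in the sources used here, so the spread between libraries may be technical. OGD differed from control in oxygen, glucose and serum at once, and these cannot be told apart. No library with A-485 but without OGD was analysed here. The reads recovered on genes ranged from 12593250 to 16091038 per library.

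CD80 and CD86 on the presenting cell bind CD28, which activates T cells, and CTLA-4, which restrains them. The ligand of ICOS acts in a related way, and CD40 passes the signal of its ligand on T cells into the presenting cell. PD-L1, the product of Cd274, and PD-L2, the product of Pdcd1lg2, bind PD-1, the inhibitory receptor encoded by Pdcd1. TIM-3, the product of Havcr2, is a checkpoint receptor found on exhausted T cells and also on microglia and macrophages, and CD83 marks activated presenting cells. Resting microglia carry little of the costimulatory molecules and raise them on activation.

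Levels are in FPKM as deposited, reads scaled by gene length and by a divisor per library, so they can be compared between genes. This divisor was above the reads recovered on genes in every control and OGD library. In every OGD + A-485 library it was below them. Fold changes are on the scale of log2(FPKM + 0.1), with the standard error (SE) of the limma fit. A gene counted as called when its unadjusted p-value was under 0.01 and its log2 fold change was beyond 0.5 in either direction, the thresholds of the study. The fit covered 16123 genes. In OGD against control 11.2% of them were called higher and 9.81% lower. OGD + A-485 against OGD gave 12.2% higher and 13.4% lower, and OGD + A-485 against control 17.0% higher and 16.6% lower. The share over all genes at an unadjusted p-value under 0.05 alone was not computed. Counts at that cut are given below as a description, and nothing is read from them. With libraries scaled to their totals in place of the deposited scaling, the calls of OGD + A-485 against control moved from 2747 higher and 2684 lower to 2253 higher and 3350 lower. The OGD group is part of the first pair of comparisons and the control group of the first and the last, so the 3 comparisons are not independent. In these bulk samples fewer expressing cells and less RNA per cell cannot be told apart.

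Pdcd1 had the largest difference of the 9 genes. In control libraries its level was 13.0, 13.6 and 13.3 FPKM, and under OGD 14.9, 13.7 and 14.7 FPKM. With A-485 it was 0.177, 0.0328 and 0.144 FPKM. The control and OGD libraries were all high, with the lowest OGD library just above the highest control, and the 3 libraries with A-485 stood far below both. In reads, Pdcd1 (ENSMUSG00000026285, chr1:94038305-94052553, minus strand, GRCm38) had 336, 375 and 417 in control, 365, 344 and 400 in OGD, and 5, 1 and 4 with A-485. The ratio of OGD to OGD + A-485 in summed reads, scaled by the library divisors, was 125 (95% exact conditional interval 67.6 to 261, for counting error only). Against control the same ratio was 115 (62.5 to 241). On the log2 scale the fold change was -6.13 (SE 0.23) against OGD and -6.01 (SE 0.23) against control, and only 1 of the 16123 genes tested had a lower value against OGD. With so few reads left, the pseudocount sets this value: against OGD it was -3.79 with a pseudocount of 1 and -7.07 with 0.01. OGD against control gave 0.11 (SE 0.23), which was not called.

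The nearest expressed genes on both sides of Pdcd1 had no such fall. Ing5, which lies 216 kb to the left of Pdcd1 on chromosome 1, had 5.93 FPKM ± 0.278 (SD, n = 3) in OGD and 6.44 FPKM ± 0.196 (SD, n = 3) with A-485. D2hgdh, 186 kb to the left, had 4.05 ± 0.533 and 3.18 ± 0.409 FPKM (SD, n = 3 each). Fam174a, the nearest expressed gene to the right at 1261 kb, had 4.31 ± 0.379 and 4.68 ± 0.252 FPKM (SD, n = 3 each), and Gm15427, next after it, 314 ± 11.3 and 296 ± 7.97 FPKM (SD, n = 3 each). The median log2 fold change of the 50 nearest expressed genes was 0.11 in OGD + A-485 against OGD.

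The promoter of Pdcd1, from 250 bases before to 50 after the start of transcription in RefSeq (GRCm38.p6), is shown with those of Cd80, the other member called lower with A-485 against OGD, and of Cd274 and Havcr2, the members called higher under OGD. RefSeq promoters were found for 6 of the 9 members. Motifs of 5 kinds were searched on both strands. AP-1 was searched as TGANTCA (in 7.81% of 32851 mouse promoters of this length), the gamma-interferon site as TTCNNNGAA (8.30%), and the core of the hypoxia response element as ACGTG (19.6%). The interferon-stimulated response element was in 3.44% and the NF-kB site in 8.46%. Capitals mark the matches. The Pdcd1 window (chr1:94052504-94052803, minus strand) held none of them. The Cd80 window (chr16:38458683-38458982, plus strand), around a RefSeq start 3372 bases from the gene start in the table, held an AP-1 match from position -42, counted from the start. The Cd274 window (chr19:29367188-29367487, plus strand) held a hypoxia response core on the minus strand, from position 40 after the start. The Havcr2 window (chr11:46454681-46454980, plus strand) held an AP-1 match from position -200 and a hypoxia response core from position -100. Matches of letters are a description and say nothing of binding.
Pdcd1: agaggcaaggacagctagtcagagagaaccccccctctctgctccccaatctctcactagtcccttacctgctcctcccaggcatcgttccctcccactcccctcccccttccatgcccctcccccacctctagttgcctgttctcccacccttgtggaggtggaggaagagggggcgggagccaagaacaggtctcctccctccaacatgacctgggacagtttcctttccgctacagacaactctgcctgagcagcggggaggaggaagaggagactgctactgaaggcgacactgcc
Cd80: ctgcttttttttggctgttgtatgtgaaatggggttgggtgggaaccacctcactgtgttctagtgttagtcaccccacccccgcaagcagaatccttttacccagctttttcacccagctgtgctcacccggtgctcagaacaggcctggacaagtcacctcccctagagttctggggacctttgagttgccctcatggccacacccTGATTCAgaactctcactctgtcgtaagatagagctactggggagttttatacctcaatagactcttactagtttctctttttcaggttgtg
Cd274: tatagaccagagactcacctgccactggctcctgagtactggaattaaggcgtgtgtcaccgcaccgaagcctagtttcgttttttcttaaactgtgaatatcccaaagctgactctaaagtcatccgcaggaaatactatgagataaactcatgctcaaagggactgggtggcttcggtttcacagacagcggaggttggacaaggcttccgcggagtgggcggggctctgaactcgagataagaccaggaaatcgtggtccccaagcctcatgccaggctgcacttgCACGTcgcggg
Havcr2: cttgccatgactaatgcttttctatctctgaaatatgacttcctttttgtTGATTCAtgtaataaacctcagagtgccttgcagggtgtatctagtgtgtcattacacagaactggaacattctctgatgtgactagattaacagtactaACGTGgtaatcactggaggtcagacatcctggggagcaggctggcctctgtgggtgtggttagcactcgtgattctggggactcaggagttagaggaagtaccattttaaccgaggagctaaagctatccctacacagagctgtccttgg

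Cd274 was called higher under OGD. Its level was 4.05, 3.66 and 2.92 FPKM in control, 7.01, 8.06 and 6.34 FPKM under OGD and 8.96, 8.30 and 8.27 FPKM with A-485. No library of one group overlapped another group. It differed by 0.996 (SE 0.13) on the log2 scale in OGD against control and 1.25 (SE 0.13) in OGD + A-485 against control, both called, and 0.26 (SE 0.13) in OGD + A-485 against OGD, which was not. Cd274 (ENSMUSG00000016496) lies at chr19:29367455-29388095 on the plus strand, and whether reads were counted by strand is not given in the sources used here. Plgrkt, which starts next to it, rose by 0.58 (SE 0.10) in OGD against control. Flanking genes were added after their values were seen, so no p-value is given for them. The other flanking genes examined had -0.11 (Insl6), 0.13 (Ric1) and -0.20 (Ermp1) in that comparison, and the 50 nearest expressed genes a median of -0.10. Pdcd1lg2, 22.8 kb further along the same chromosome, was barely detected, with 0, 1 and 1 reads in control, 2, 0 and 2 under OGD and 3, 2 and 0 with A-485. It was the only member below the filter of 0.2 FPKM on the mean, and no fold change is given for it. Of the PD-1 ligands, only Cd274 was thus detected beyond a few reads. The ratio of Cd274 to Pdcd1 was 0.219 to 0.311 in control libraries, 0.430 to 0.589 under OGD and 50.5 to 253 with A-485, where it rests on between 1 and 5 reads of Pdcd1.

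**Figure D1:**
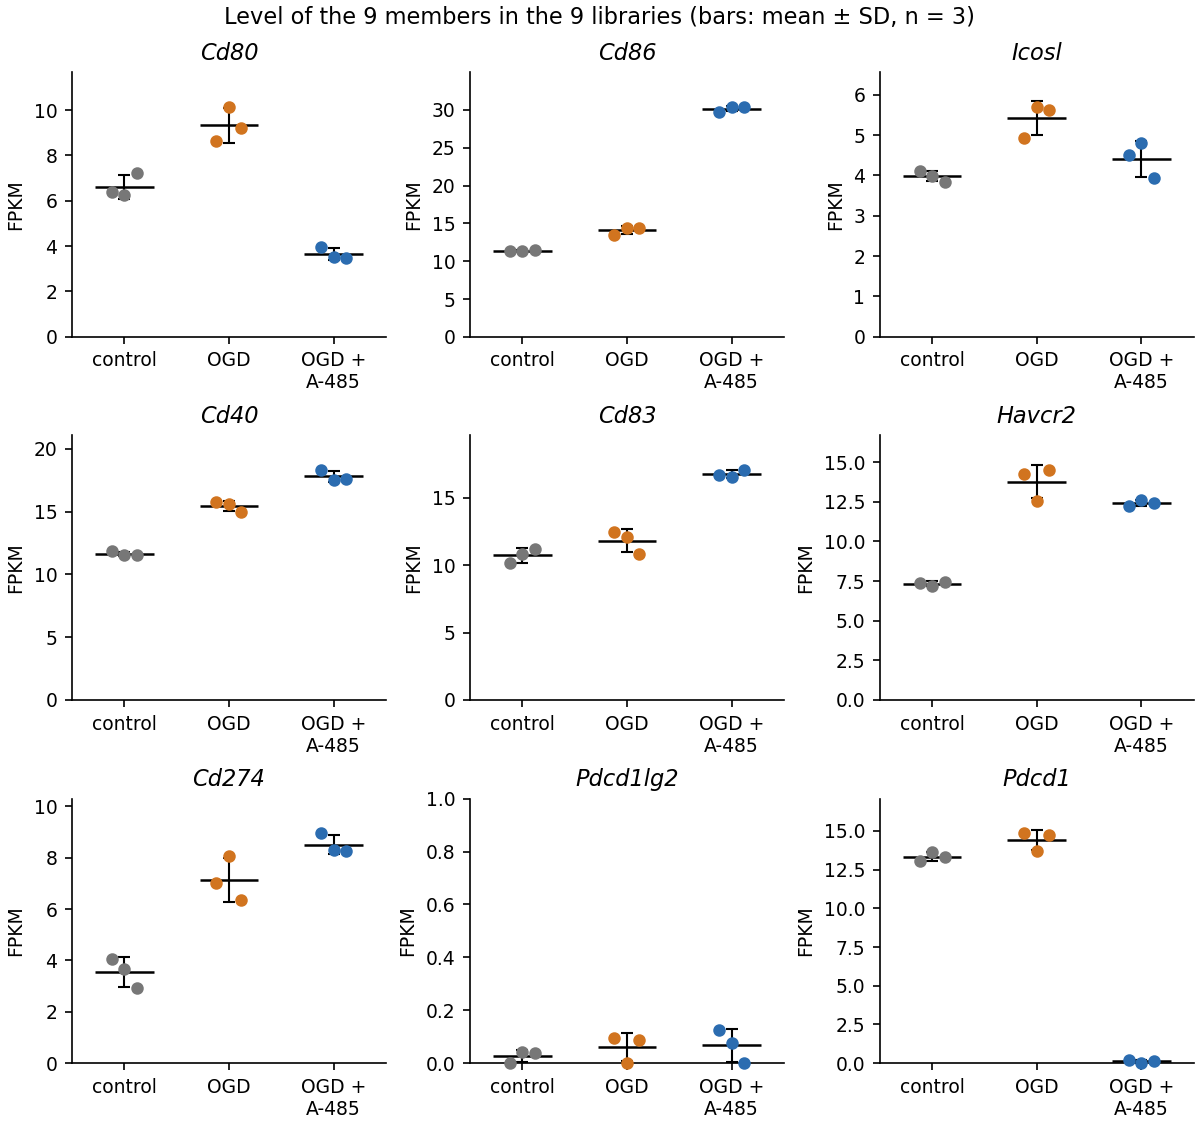
Level in FPKM (y axis, from 0) of each member by group (x axis: control, OGD, OGD + A-485). Points are libraries, and bars are the mean ± SD of 3. Cd80 and Pdcd1 are lowest with A-485, Cd86, Cd83, Cd40 and Cd274 highest with A-485, and Pdcd1lg2 lies under 0.2 FPKM in every library.

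Cd80 and Cd86, which share both receptors, moved apart with A-485. Cd80 (ENSMUSG00000075122, chr16:38455561-38496335, plus strand) had 6.37, 6.25 and 7.22 FPKM in control, 8.61, 10.1 and 9.20 FPKM under OGD and 3.96, 3.54 and 3.47 FPKM with A-485. The groups did not overlap: OGD was highest, and the libraries with A-485 were below control as well as below OGD. Its log2 fold change was -1.33 (SE 0.09) against OGD and -0.84 (SE 0.09) against control, both called. OGD against control gave 0.49 (SE 0.09), just under the threshold of 0.5, and it was called without the library control 3 (0.55), without OGD 1 (0.54) and with quantile normalization (0.504).

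Cd86 (ENSMUSG00000022901, chr16:36603869-36666081, minus strand) had 11.3, 11.3 and 11.5 FPKM in control, 13.5, 14.4 and 14.4 FPKM under OGD and 29.7, 30.3 and 30.4 FPKM with A-485. Again the groups did not overlap, but here the libraries with A-485 were the highest, and those of control the lowest. Cd86 had log2 fold changes of 0.31 (SE 0.04) in OGD against control, not called, 1.09 (SE 0.04) in OGD + A-485 against OGD and 1.40 (SE 0.04) against control, both called.

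The ratio of Cd86 to Cd80 within a library was 1.59 to 1.81 in control, 1.42 to 1.57 under OGD and 7.52 to 8.78 with A-485. Their sum was 17.6 to 18.7 FPKM in control, 22.1 to 24.6 FPKM under OGD and 33.7 to 33.9 FPKM with A-485, so Cd86 made up most of it in each group. Both genes lie on chromosome 16, 1789 kb apart. The median log2 fold change in OGD + A-485 against OGD of their 50 nearest expressed genes was 0.05 around Cd80 and 0.00 around Cd86. The genes closest to Cd80 did not all sit at that median. Adprh, 2.86 kb before it, had 41.0 FPKM ± 0.802 in control and 51.7 FPKM ± 1.77 under OGD (SD, n = 3 each). With A-485 the level was 39.0 FPKM ± 1.49 (SD, n = 3). On the log2 scale Adprh differed by 0.33 (SE 0.04) under OGD and by -0.40 (SE 0.04) with A-485 against OGD. D930030I03Rik, 2.07 kb before Cd80, had 0.88 (SE 0.26) and -0.88 (SE 0.26). Behind Cd80, Timmdc1 at 2.01 kb had -0.02 and -0.31 and Poglut1 at 28.8 kb had -0.21 and 0.39. None of the flanking genes of Cd86 examined was called higher with A-485 against OGD, but they were not all unchanged. To the left of Cd86, Gm5416 had 3.32 under OGD and -0.59 with A-485 against OGD, and 2010005H15Rik had 3.23 and 0.05. To its right, Iqcb1 had 0.19 and -1.07, and AC154232.2 had 0.35 and -0.51. The part of these neighbours in the values of Cd80 and Cd86 was not tested.

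**Figure D2:**
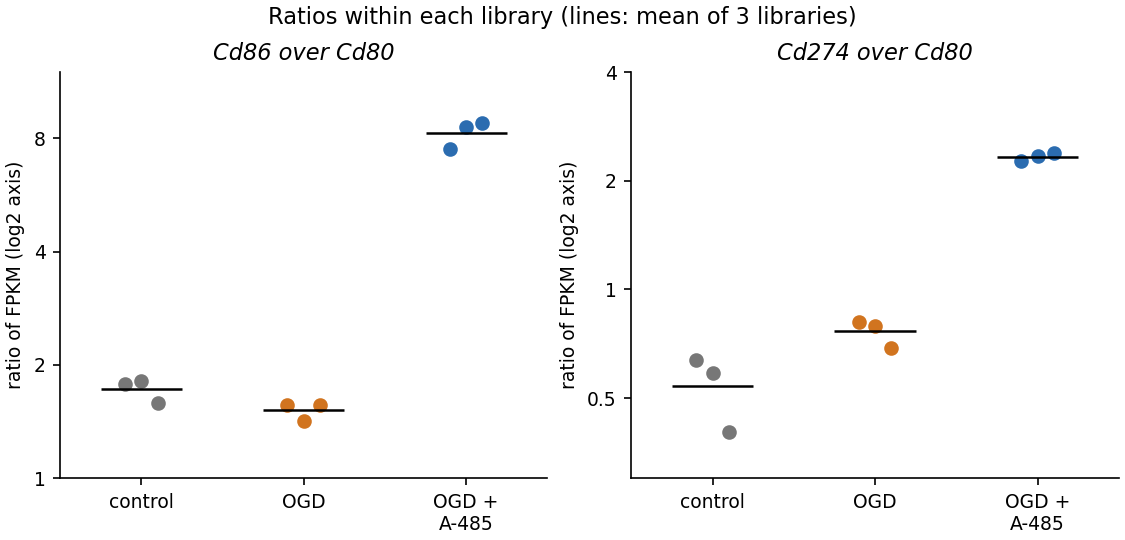
Ratio of Cd86 to Cd80 (left) and of Cd274 to Cd80 (right) in each library, on a log2 y axis, by group (x axis). Points are libraries and lines the mean of 3. With A-485 the Cd86 to Cd80 ratio was 7.52 to 8.78, against 1.81 at most in the other groups, and the Cd274 to Cd80 ratio was 2.26 to 2.39, against 0.813 at most.

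With A-485 most microglial and macrophage markers were higher, as Cd86 was. The summed level of the 10 markers examined, among them Itgam, Csf1r, Adgre1 and Cx3cr1, was 389 to 399 FPKM in control, 445 to 474 FPKM under OGD and 825 to 865 FPKM with A-485, of which Cd68 was the largest part. In OGD against control 4 of the 9 tested were called higher and 0 lower by limma and limma-voom, while at an unadjusted p-value under 0.05 alone 5 were higher and 2 lower. Adgre1 had a mean of 20.8 FPKM in control, 18.8 FPKM under OGD and 77.5 FPKM with A-485, and Spi1 had 43.9, 38.5 and 97.9 FPKM. Of the 9 tested, 7 were called higher and 0 lower in OGD + A-485 against OGD by limma and limma-voom, and 8 were higher and 0 lower at an unadjusted p-value under 0.05 alone. P2ry12, a marker of resting microglia, had a mean under 0.2 FPKM, and Tmem119, another, had 1.13 to 1.55 FPKM, with overlapping groups in every comparison. The summed level of the 6 dendritic cell markers was 8.24 to 9.26 FPKM in control, 17.8 to 19.9 FPKM under OGD and 11.5 to 13.0 FPKM with A-485, of which Itgax, also made by microglia, was the largest part, and 4 of the 6 had a mean under 0.2 FPKM. The summed level of the 6 T cell markers was 1.07 to 1.10 FPKM in control, 0.825 to 1.05 FPKM under OGD and 1.62 to 2.34 FPKM with A-485. Lck was the largest part, with a mean of 1.05 FPKM in control, 0.920 FPKM under OGD and 1.66 FPKM with A-485. The other 5, the CD3 chains included, had a mean under 0.2 FPKM. B cell, astrocyte and fibroblast markers summed to at most 0.286 FPKM in any library, and neuronal markers to at most 0.676 FPKM. Their part in the levels of the members was not tested.

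Icosl (ENSMUSG00000000732, chr10:78069302-78083913, plus strand), the ligand of ICOS, was called in none of the 3 comparisons. Its level was 4.10, 4.0 and 3.85 FPKM in control, 4.93, 5.70 and 5.63 FPKM under OGD and 4.50, 4.81 and 3.93 FPKM with A-485. OGD libraries were above those of both other groups, and control and A-485 libraries overlapped. The log2 fold changes of 0.43 (SE 0.09) in OGD against control, -0.29 (SE 0.09) in OGD + A-485 against OGD and 0.14 (SE 0.09) in OGD + A-485 against control were not called.

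Havcr2 (ENSMUSG00000020399, chr11:46454935-46481255, plus strand) was the other member called higher under OGD. It had 7.37, 7.17 and 7.44 FPKM in control, 14.2, 12.6 and 14.5 FPKM under OGD and 12.2, 12.6 and 12.4 FPKM with A-485. Control was below every library of the other groups, which overlapped each other. Its log2 fold change was 0.90 (SE 0.06) in OGD against control and 0.75 (SE 0.06) in OGD + A-485 against control, both called, and -0.14 (SE 0.06) in OGD + A-485 against OGD, not called. Of the checkpoint genes, Cd274 and Havcr2 thus stayed above control with A-485 while Pdcd1 was down to 10 reads over 3 libraries.

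Cd40 and Cd83 were highest with A-485. Cd40 (ENSMUSG00000017652, chr2:165055627-165072948, plus strand) had 11.8, 11.6 and 11.6 FPKM in control, 15.8, 15.7 and 15.0 FPKM under OGD and 18.3, 17.5 and 17.6 FPKM with A-485, with no overlap between groups. Its log2 fold change was 0.40 (SE 0.04) in OGD against control and 0.20 (SE 0.04) in OGD + A-485 against OGD, both under the threshold, and 0.61 (SE 0.04) in OGD + A-485 against control, which was called. Scaled to library totals the last value was 0.49 and the call was lost.

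Cd83 (ENSMUSG00000015396, chr13:43784775-43803132, plus strand) had 10.1, 10.9 and 11.2 FPKM in control, 12.5, 12.1 and 10.9 FPKM under OGD and 16.7, 16.5 and 17.1 FPKM with A-485. Control and OGD libraries overlapped, and all libraries with A-485 were higher. Cd83 gave log2 fold changes of 0.14 (SE 0.06) in OGD against control, not called, 0.50 (SE 0.06) in OGD + A-485 against OGD and 0.64 (SE 0.06) against control, both called. The value against OGD sat at the threshold: it was 0.45 without the library OGD 3, 0.49 without OGD + A-485 3, 0.47 with a pseudocount of 1, 0.47 with quantile normalization and 0.44 with library totals, and in each of these the call was lost. The 50 nearest expressed genes had a median of -0.37, and less that median the value was 0.87.

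**Figure D3:**
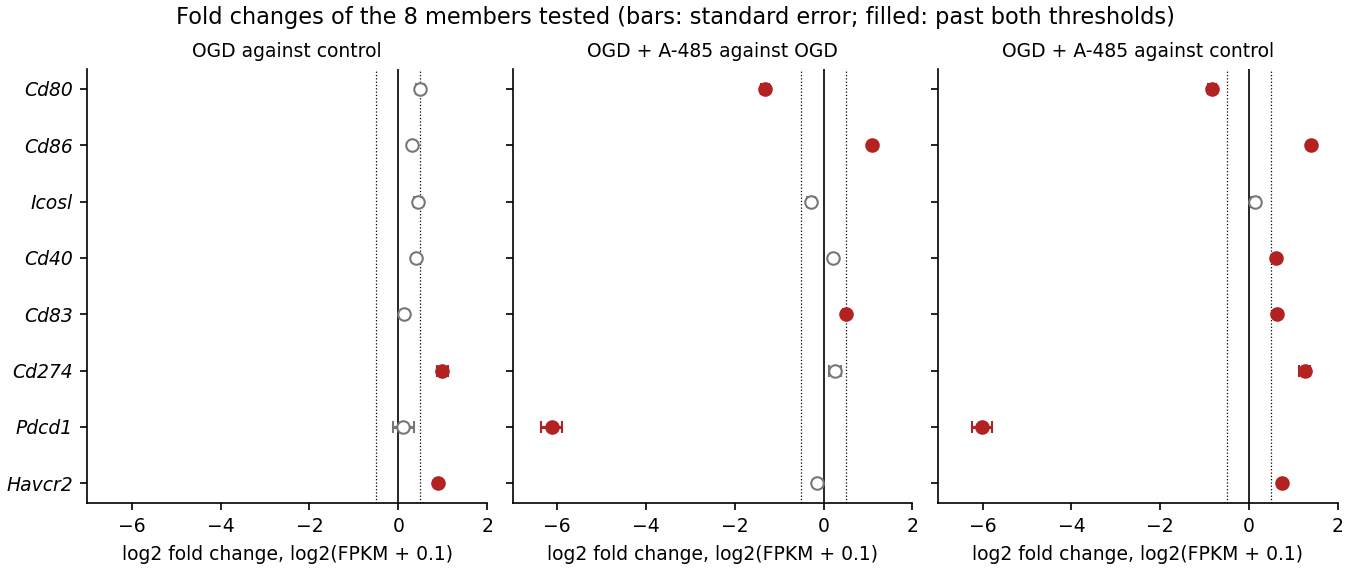
Log2 fold change (x axis, on log2(FPKM + 0.1)) of the 8 members tested (y axis) in the 3 comparisons. Bars are the standard error, some hidden by the point, filled points are called and dotted lines mark 0.5 in either direction. Pdcd1 at -6.13 and -6.01 lies far from the other members, which range from -1.33 to 1.40.

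By count, 2 of the 8 members tested were called higher and 0 lower by limma in OGD against control (Cd274 and Havcr2), and also by limma-voom on the recovered reads; all 8 values were above 0, with a median log2 fold change of 0.42 beside 0.01 over all genes. In OGD + A-485 against OGD, 2 were called higher (Cd86 and Cd83) and 2 lower (Cd80 and Pdcd1), with a median of 0.03 beside 0.01. In OGD + A-485 against control, 5 were called higher and 2 lower, with a median of 0.62 beside 0.02, and Icosl was the member not called. Since the members were chosen with their values known, nothing is read from these shares against those of all genes given above. All 9 members summed to 68.2 to 69.0 FPKM in control, 90.7 to 92.3 FPKM under OGD and 93.3 to 94.7 FPKM with A-485, so the total hardly differed between the OGD groups although its makeup did.

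The order of the members changed accordingly. In control Pdcd1 had the highest level (mean 13.3 FPKM ± 0.302, SD, n = 3), followed by Cd40, Cd86 and Cd83, then Havcr2 and Cd80, which overlapped, Icosl and Cd274, which overlapped, and Pdcd1lg2. Under OGD Cd40 was highest (15.5 FPKM ± 0.416), and Pdcd1 (14.4 FPKM ± 0.641), Cd86 (14.1 FPKM ± 0.524) and Havcr2 (13.8 FPKM ± 1.05) could not be ordered beyond their spread. With A-485 the order was Cd86 (30.2 FPKM ± 0.360), Cd40 (17.8 FPKM ± 0.432), Cd83 (16.8 FPKM ± 0.270), Havcr2 (12.4 FPKM ± 0.169) and Cd274 (8.51 FPKM ± 0.387), then Icosl (4.42 FPKM ± 0.445) and Cd80 (3.65 FPKM ± 0.264), which overlapped, with Pdcd1 (0.118 FPKM ± 0.0756) next to Pdcd1lg2 at the bottom.

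Likeness was computed for the 6 members called in at least 1 of the first pair of comparisons, so not for Icosl, Cd40 and Pdcd1lg2. The genes most like each of the 6 over the 9 libraries, out of 10250 annotated genes averaging 1 FPKM or more, followed from these group patterns. For Pdcd1 they were Dcbld2 and Pdk3, a kinase that inhibits pyruvate dehydrogenase, each with Pearson's r of 0.998. Pdk3 had a mean of 7.85 FPKM in control, 10.3 FPKM under OGD and 0.0626 FPKM with A-485. For Cd80 they were Mms19 (r = 0.994) and Got1 (0.992), for Cd86 Lcp1 and Ggta1 (both 0.999), for Cd83 Vps4b (0.992) and Cog6 (0.989), for Cd274 Pyroxd2 and Naip5 (both 0.988), and for Havcr2 Spry2 (0.996) and Nap1l4 (0.991). The points share libraries and 3 group means, and no test was made.

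Partners and regulators of the members came from a list of 74 other genes in 6 groups, of which 50 passed the filter. In OGD against control 15 of the 50 were called higher and 3 lower, in OGD + A-485 against OGD 17 higher and 10 lower, and in OGD + A-485 against control 24 higher and 5 lower. Icos and Vtcn1, which passed the filter only through groups where they are high, are in the counts of both comparisons with A-485. The median log2 fold changes of the 50 genes were 0.17, 0.11 and 0.45. Adjusted p-values below are from limma with Benjamini-Hochberg adjustment over all 16123 genes. The list was chosen with earlier results of these data known, so they are descriptive.

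Among the receptors that CD80 and CD86 bind, Cd28 rose in each of the 3 comparisons. Its level was 10.6, 10.1 and 10.5 FPKM in control, 26.4, 30.3 and 24 FPKM under OGD and 54.3, 58.4 and 56.4 FPKM with A-485, with no overlap. The log2 fold change was 1.35 (SE 0.08, adjusted p = 3.0e-06) under OGD, and 1.07 (SE 0.08, adjusted p = 6.0e-06) with A-485 against OGD. Cd28 encodes a costimulatory receptor known from T cells, and the T cell markers are given above. Ctla4 stayed below the filter, with a mean of 0.116, 0.121 and 0.318 FPKM in control, OGD and OGD + A-485. Icos, the receptor of the Icosl product, had 1 read in all of control, 1 under OGD and 36, 31 and 27 with A-485. Its ratio to OGD in summed reads was 83.5 (95% interval 14.6 to 3332, counting error only). It was called higher, but it passed the filter only through the libraries with A-485, where it is high. Its call is therefore a description, with no p-value. Cd40lg, the ligand of CD40, was listed at 0 in every library.

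In the other members of the B7 and CD28 families, Cd276, which encodes B7-H3, had 11.4, 12.6 and 10.8 FPKM under OGD and 3.48, 2.65 and 2.56 FPKM with A-485 (log2 fold change -1.98, SE 0.12, adjusted p = 2.2e-06). Vtcn1, encoding B7-H4, fell from 12, 17 and 13 reads in control to 0, 1 and 1 with A-485. The ratio of control to OGD + A-485 in summed reads was 21.5 (95% interval 5.59 to 183, counting error only). Vtcn1 was called lower, but it passed the filter only through the control and OGD libraries, where it is high. Its call is therefore a description, with no p-value. Tnfrsf14, the receptor HVEM, had 0.328, 0.160 and 0.148 FPKM under OGD and 7.66, 6.34 and 5.06 FPKM with A-485, a rise of 4.40 (SE 0.27, adjusted p = 2.4e-06). Against control it rose by 3.44 (SE 0.27, adjusted p = 5.9e-06). Under OGD it fell by 0.95 (SE 0.27, adjusted p = 0.017), on 31 reads in all of control and 12 in OGD, and several alternatives lost that call. All 6 genes tested of this group were called in OGD + A-485 against OGD, 4 higher, Icos among them, and 2 lower, Vtcn1 among them. Over all genes 12.2% were called higher and 13.4% lower. Since Icos and Vtcn1 passed the filter only through groups where they are high, nothing is read from this count.

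Of 7 TNF-family costimulators tested, 4 rose and 0 fell under OGD, and 0 rose and 3 fell with A-485 against OGD, with the same counts by limma-voom. At an unadjusted p-value under 0.05 alone, 5 were higher and 0 lower under OGD, and 1 was higher and 4 lower with A-485 against OGD. Tnfrsf18, the receptor GITR, had 1.42, 1.93 and 2.23 FPKM in control, 6.86, 6.25 and 6.95 FPKM under OGD and 1.53, 1.66 and 1.77 FPKM with A-485, so that the libraries with A-485 lay within the control range. It rose by 1.81 (SE 0.15, adjusted p = 2.0e-05) and fell by 1.95 (SE 0.15, adjusted p = 9.2e-06). Tnfrsf4, the receptor OX40, rose by 1.58 (SE 0.21, adjusted p = 0.00028) and fell by 2.11 (SE 0.21, adjusted p = 4.1e-05). Among the members, Cd80, Icosl and Pdcd1 likewise had every OGD library above those of both other groups. None of them was called under OGD, and Cd80 and Pdcd1, but not Icosl, were called lower with A-485 against OGD. Havcr2 also had its highest mean under OGD, but its libraries with A-485 overlapped those of OGD.

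Of 10 genes of CD40 signalling, 3 rose and 0 fell under OGD, and 1 rose and 4 fell with A-485 against OGD. Their median log2 fold change was 0.49 under OGD and -0.36 with A-485 against OGD. Cd40 itself, with 0.40 and 0.20, was not called in either. By limma-voom 4 rose and 0 fell under OGD. At an unadjusted p-value under 0.05 alone, 7 were higher and 2 lower under OGD, and 2 higher and 5 lower with A-485 against OGD. Traf1, an adaptor of TNF receptors, had 1.92, 2.23 and 2.18 FPKM in control, 4.54, 4.24 and 4.39 FPKM under OGD and 1.06, 1.19 and 1.24 FPKM with A-485. It rose by 1.03 (SE 0.10, adjusted p = 4.6e-05) and fell by 1.83 (SE 0.10, adjusted p = 1.2e-06).

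Of 13 other checkpoint ligands and receptors tested, 6 rose and 1 fell under OGD, and 7 rose and 1 fell with A-485 against OGD. Lilrb4a, an inhibitory receptor of myeloid cells, had 43.9, 43.3 and 41.9 FPKM in control, 123, 171 and 139 FPKM under OGD and 81.5, 80.2 and 76.6 FPKM with A-485 (1.73 under OGD, SE 0.10, adjusted p = 3.5e-06). Pirb, an inhibitory receptor for class I molecules, had 1.39, 1.07 and 1.37 FPKM under OGD and 6.57, 7.14 and 6.21 FPKM with A-485 (2.30, SE 0.14, adjusted p = 2.1e-06). Both have close paralogs, so that reads may be split between copies. Hmgb1, an alarmin that binds TIM-3, fell by 1.27 (SE 0.07, adjusted p = 2.0e-06) under OGD, with 17.8, 17.6 and 18.8 FPKM in control and 7.46, 7.83 and 6.96 FPKM in OGD. Lgals9, encoding galectin-9, also a ligand of TIM-3, had a mean of 39.4, 42.1 and 50.5 FPKM in control, OGD and OGD + A-485 and was not called. Ceacam1, which binds TIM-3 as well, had 2.11 FPKM ± 0.223 under OGD and 4.55 FPKM ± 0.0235 with A-485 (SD, n = 3 each) and rose by 1.08 (SE 0.11, adjusted p = 6.5e-05).

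Cd274 is known to be induced through the interferon-gamma pathway. Of 9 genes of this pathway, 0 rose and 1 fell under OGD, and 5 rose and 0 fell with A-485 against OGD. These counts were the same by limma-voom. At an unadjusted p-value under 0.05 alone, 4 were higher and 1 lower under OGD, and 7 higher and 0 lower with A-485 against OGD. The part of this pathway in the level of Cd274 was not tested. Irf1, the transcription factor at the end of the pathway, had 3.56, 2.59 and 3.34 FPKM under OGD and 5.90, 5.68 and 5.49 FPKM with A-485 (0.84, SE 0.14, adjusted p = 0.00093 by limma). Irf2 was the gene that fell under OGD, by 0.56 (SE 0.08, adjusted p = 0.00044), a call lost without the library OGD 3. Of 5 genes for turnover of the CD86 and PD-L1 proteins, 0 were called in any of the 3 comparisons by limma or limma-voom. At an unadjusted p-value under 0.05 alone, 0 were higher and 3 lower under OGD, and 1 higher and 3 lower with A-485 against OGD. Cmtm6, which protects PD-L1 from degradation, had a mean of 16.2, 17.4 and 14.1 FPKM in control, OGD and OGD + A-485. Marchf1, a ubiquitin ligase acting on CD86, was under the filter, with 0 reads in the 6 libraries without A-485 and 7, 11 and 9 reads with it.

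**Figure D4:**
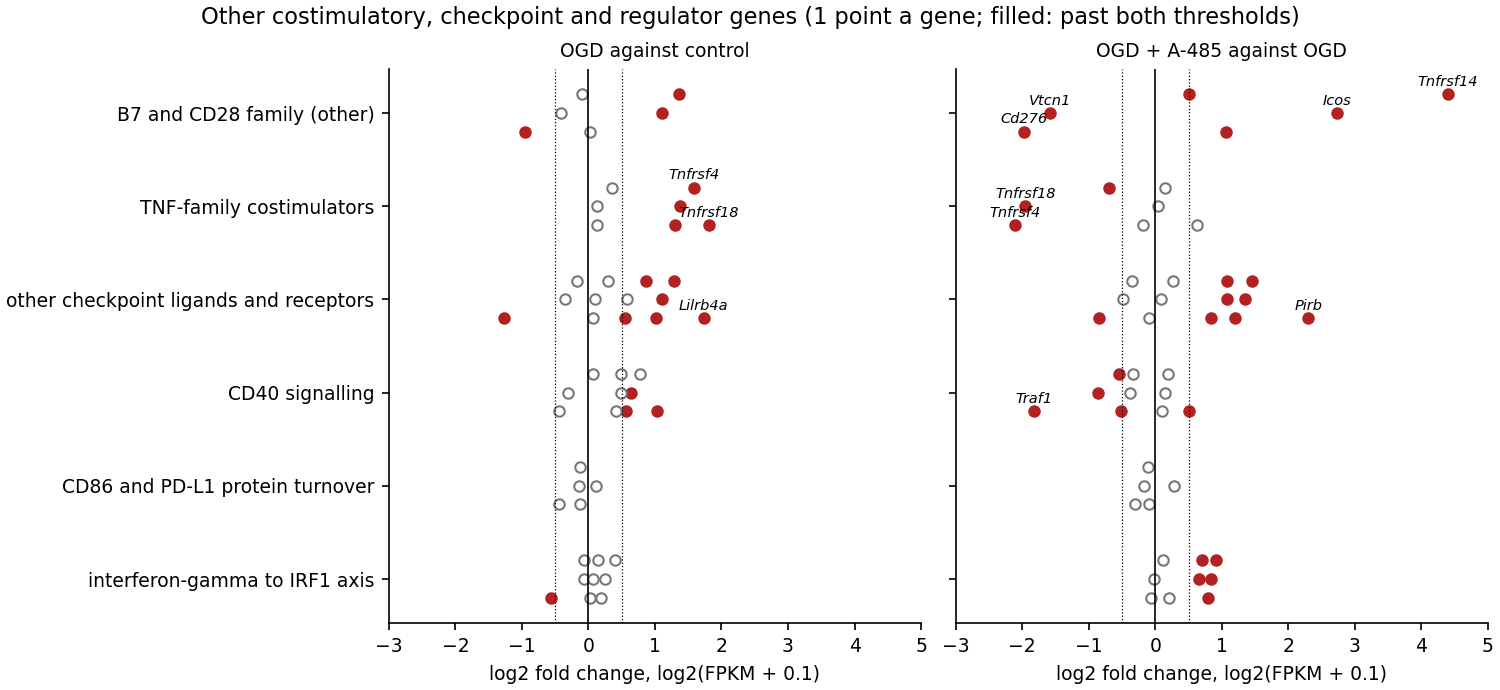
Log2 fold change (x axis, on log2(FPKM + 0.1)) of the 50 other genes tested, by group of genes (y axis, spread within a row for legibility), in OGD against control (left) and OGD + A-485 against OGD (right). Each point is a gene, filled points are called and dotted lines mark 0.5 in either direction. Of the TNF-family costimulators, 4 are called higher on the left and 3 lower on the right.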

How the data were processed

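The 9 RNA libraries of BV2 cells fall into 3 groups by the sample labels. The authors deposited FPKM for 54532 genes with gene length and coordinates. Reads had been counted on genes with featureCounts by the authors, the labels name GRCm38 as the build, and the aligner and annotation release are not given in the sources used here. Deposited FPKM times gene length times a divisor per library gave whole reads for 100% of values above 0 (tolerance 0.01 reads). In each library the precision of a low gene is limited by these reads.

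Genes averaging 0.2 FPKM or more (16123) were kept, and limma 3.58.1 (R 4.3.3) was run on log2(FPKM + 0.1), estimating each group's mean and letting the prior variance follow the level. The fit was tested on simulated data. Calls needed p under 0.01, unadjusted, and a log2 fold change beyond 0.5 in size. Intervals on read ratios are exact conditional 95% intervals and cover counting error only. Python 3.11.15 with pandas 2.3.3 was used for summaries, and promoters came from RefSeq (GRCm38.p6).

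The members, the 74 other genes and the marker lists were chosen with earlier results of these data known. Named were all members, the 3 largest rises and falls called in the list of 74 in each comparison, direct partners of the members, and for each member called in at least 1 of the first pair of comparisons the 2 genes with the highest Pearson's r. Pdk3, Dcbld2 and the like come from the last part, and genes flanking Pdcd1, Cd274, Cd80 and Cd86 were added after their values were seen. Of the 74 genes, 2 were matched by gene identifier because the table holds their names as dates. The alternatives were pseudocounts of 1 and 0.01, a filter at 1 FPKM, every gene with a value, quantile normalization, library totals, the groups compared only, a replicate block, no trend, limma-voom on the reads, calls at an adjusted p-value under 0.05, subtraction of the median over the 50 nearest genes, and each library left out.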

Additional observations from a re-analysis of the deposited data

How the results depend on the processing

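No member's log2 fold change reversed its sign under any alternative. The count of members called higher in OGD + A-485 against OGD, 2, was 1 with a pseudocount of 1, with quantile normalization and with library totals, and 1 to 2 with a library left out. The gene lost was Cd83, without OGD 3 or OGD + A-485 3. The count of the 50 other genes called lower in OGD against control, 3, was 1 with a pseudocount of 1 and 1 to 3 with a library left out. It was 1 without OGD 3, where Tnfrsf14 (-0.81) and Irf2 (-0.49) were lost. Tnfrsf14 was also lost without control 2, control 3, OGD 2 or OGD + A-485 2, in the fit of the groups compared only and with limma-voom, each leaving a count of 2. Vtcn1 lost its call against control with a pseudocount of 1. The count of members called higher in OGD against control, 2, was 3 with quantile normalization, without control 3 and without OGD 1, where Cd80 was gained. The other counts of members and of list genes moved by less than 1.5 times.

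Some uncalled values of list genes changed sign. Icos in OGD against control, 0.02, was -0.13 with quantile normalization, -0.02 without control 1 or control 2, and -0.080 to 0.099 over all libraries left out, and rests on 2 reads. Irf1, -0.07, was 0.04 without control 3, and -0.17 to 0.064 over all libraries left out. Cmtm6, less the median of its neighbours, was 0.12 against OGD and 0.13 against control.

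The replicate numbers shared by the groups showed no pairing of the libraries. In both other groups at once, 0 of 9 libraries correlated best with the library of its own number. OGD 2 and OGD + A-485 2 did have their highest correlation with each other, at 0.0725. The mean correlation of same-numbered libraries was -0.0302 (range -0.125 to 0.0725 over 11898 genes). With the number as a replicate block, the calls over all genes were 1740 higher and 1548 lower in OGD against control and 1937 higher and 2109 lower in OGD + A-485 against OGD, and the members called numbered 2 and 0, and 2 and 2. Depth limits Pdcd1 with A-485, Pdcd1lg2, Icos and Vtcn1, each with few reads in at least 1 group.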
